A study of Mus musculus with 4 samples.

Results

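The 37 genes described here encode the working parts of the lysosome: 17 hydrolases, 2 soluble proteins that handle lipids, 6 membrane proteins, 10 subunits of the proton pump and the transcription factors TFEB and TFE3. They were found on a mouse expression array through the transcript accession each probe was designed on. All 37 had a probe, and together they had 53 of the 41174 probes on the array. The cells were Hepa1c1c7, a mouse hepatoma line, on 4 arrays: 2 with RNA of cells exposed for 6 hours to 100 µM diethyl maleate (DEM), and 2 with RNA of control cells that received only the solvent, dimethyl sulfoxide (DMSO), for the same time. DEM is an electrophile that binds thiols such as glutathione and activates NRF2, the transcription factor of antioxidant genes. No genotype was altered in either group, and the result is that of 1 cell line at 1 dose and 1 time. One protocol field in the labels speaks of liver tissue, while every other label names the cell line. Whether the RNA samples of a group stem from different cultures is not stated in the labels, so each p-value rests on a spread that could be purely technical. In a bulk sample, fewer cells of a kind and less RNA per cell cannot be told apart.

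Lysosomes are acidic compartments that break down proteins, sugars and lipids delivered by endocytosis and autophagy. The vacuolar ATPase acidifies them: its V1 sector lies in the cytosol and splits ATP, and its V0 sector lies in the membrane and carries protons inward. Many genes of lysosomal proteins share a promoter sequence, the CLEAR element, which is bound by TFEB and TFE3 when these factors enter the nucleus. Nuclear entry is set mainly by phosphorylation of the proteins at the lysosome surface, a step that an RNA measurement does not read.

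The CLEAR element TCACGTGA, which contains the shorter E-box CACGTG, was searched on both strands in the RefSeq promoters of GRCm38.p6, from 250 bases before to 50 bases after each start. Of the 37 genes 30 matched an entry by symbol, and Ctsb, Ctsh, Asah1, Npc1, Atp6v1b2, Atp6v1c1 and Atp6v1h were not matched. A CLEAR element was present in 7 of the 30 genes (23.3%), against 1.12% of the 27025 genes in the table. An E-box was present in 14 of 30 (46.7%), against 8.09%. The antioxidant response element TGACNNNGC, the sequence bound by NRF2, was present in 8 of 30 (26.7%), against 14.0%. By class, 3 of 14 hydrolases, 1 of 5 membrane proteins and 3 of 7 pump subunits held a CLEAR element. Only the letters given were searched, so a variant of an element counted as absent. A match of letters is a description and not evidence of binding. The 9 CLEAR elements are shown with 11 bases on each side, because this element was found in hydrolases, membrane proteins and pump subunits alike. It was found in neither soluble protein with no enzyme activity and in neither factor. They are written 5′ to 3′ on the strand of the gene, with the element in capitals.
Ctsd, chr7:142387908-142387937, minus strand: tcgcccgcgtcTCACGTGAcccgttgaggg
Ctsa, chr2:164833749-164833778, plus strand: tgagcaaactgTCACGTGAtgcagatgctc
Ctsa, chr2:164833766-164833795, plus strand: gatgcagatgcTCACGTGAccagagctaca
Gla, chrX:134601215-134601244, minus strand: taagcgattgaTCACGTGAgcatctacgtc
Gla, chrX:134601182-134601211, minus strand: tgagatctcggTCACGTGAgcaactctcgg
Mcoln1, chr8:3500462-3500491, plus strand: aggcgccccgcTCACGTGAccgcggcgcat
Atp6v0d1, chr8:105566050-105566079, minus strand: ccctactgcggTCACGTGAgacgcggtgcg
Atp6v0e, chr17:26676387-26676416, plus strand: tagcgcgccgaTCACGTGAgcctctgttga
Atp6v1a, chr16:44139373-44139402, minus strand: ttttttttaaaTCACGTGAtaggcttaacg

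**Figure D1:**
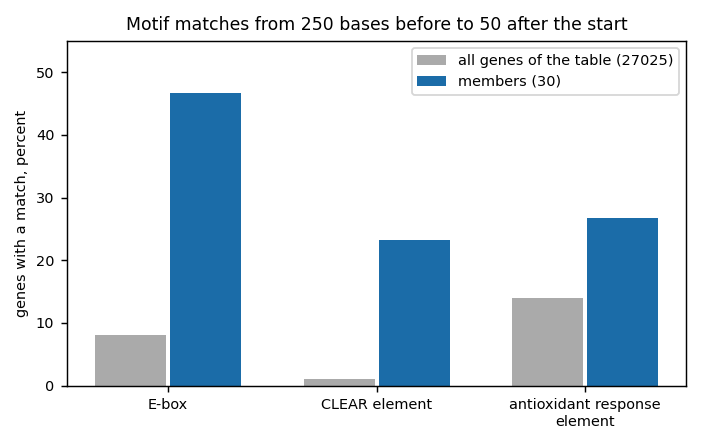
Percent of genes whose promoter window holds at least 1 match to an E-box, a CLEAR element or an antioxidant response element, for all 27025 genes of the RefSeq promoter table (grey) and the 30 lysosomal genes with an entry (blue). The blue bar is above the grey one for each motif, with the E-box at 46.7% against 8.09%.

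None of the 37 genes passed the test after 6 hours of DEM. Of the 37 genes, 35 were tested, 0 were called higher and 0 lower (limma with Benjamini-Hochberg adjustment over the 15537 genes tested, adjusted p from 0.0865 to 0.967), where 1.22% of all genes were called, 0.714% higher and 0.508% lower. Before adjustment, p was under 0.05 for 3 of the 35 (8.57%), all higher in DEM. Over all genes the share was 19.2%, with 9.02% higher and 10.2% lower. The 3 were Tfe3, Atp6v1a and Atp6v1h. With limma's prior spread allowed to follow signal intensity these 3 genes were called, and after normexp background correction they were called together with Ctsd. Those settings also called more of all genes higher, 2.67% and 2.80%. Under median scaling, the stricter background filter and spike-in scaling, 0 of the 35 were called, where 2.60%, 1.58% and 1.29% of all genes were called higher. The 95% confidence intervals of all 35 log2 changes lay within −1 and 1, that is, within a 2-fold change in either direction, and 28 of 35 lay within a 1.5-fold change. On the same arrays the 6 NRF2 targets taken as a check, Nqo1, Hmox1, Gclm, Slc7a11, Txnrd1 and Srxn1, were all called higher, from 1.76-fold to 35.5-fold. These 6 were listed with earlier results of these data known, so they are not an independent check.

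The changes of the 35 genes were small and leaned above 0. Their median log2 change was 0.095 (lowest −0.16, highest 0.55) against −0.0061 over all genes tested, and 29 of 35 (82.9%) were above 0 against 48.8% of all genes. The count above 0 depended on the arrays and the scaling. It was 17 of 35 without DMSO replicate 2, 22 without DEM replicate 1 and 31 without DMSO replicate 1 or DEM replicate 2. With arrays scaled on spike-in probes it was 22, and under median scaling it was 34. Both scalings shift every gene on an array alike, and the median of all genes became −0.069 and 0.14. The median of the 35 was then 0.033 and 0.24, above that of all genes in each. DEM and DMSO values were fully separate in 15 of 35 genes, 13 higher and 2 lower, which at 42.9% is near the 50.6% of all genes tested (24.9% higher and 25.6% lower). Changes above 0.3 in size were found in 5 of 35 genes (14.3%), against 23.9% of all genes.

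**Figure D2:**
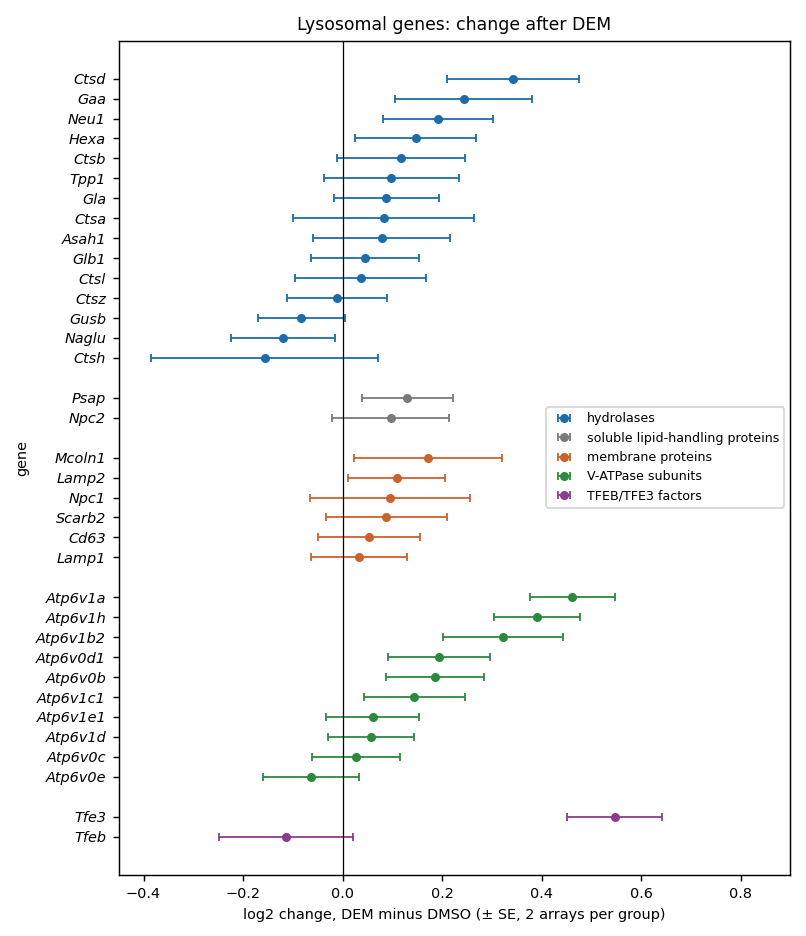
Log2 change of each of the 35 tested genes (DEM minus DMSO, horizontal axis) with its standard error from limma, 2 arrays per group, sorted within 5 classes. Most points lie between −0.2 and 0.2, and the 3 genes farthest to the right are Tfe3, Atp6v1a and Atp6v1h.

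Replicates within a group also differed across the lysosomal genes as a set. DMSO replicate 1 was above DMSO replicate 2 in 31 of 35 genes, with a median log2 difference of 0.17, while over all genes the share was 59.0% and the median 0.042. DEM replicate 1 was above DEM replicate 2 in 28 of 35, with a median difference of 0.086, where all genes had 48.3% and −0.0064. Among the 15 hydrolases tested, 14 were higher in DMSO replicate 1 and 15 in DEM replicate 1. The difference between the DMSO arrays was therefore larger than the median change after DEM. The 4 arrays lay on 1 slide with 1 scan time, and what set these replicates apart was not tested.

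**Figure D3:**
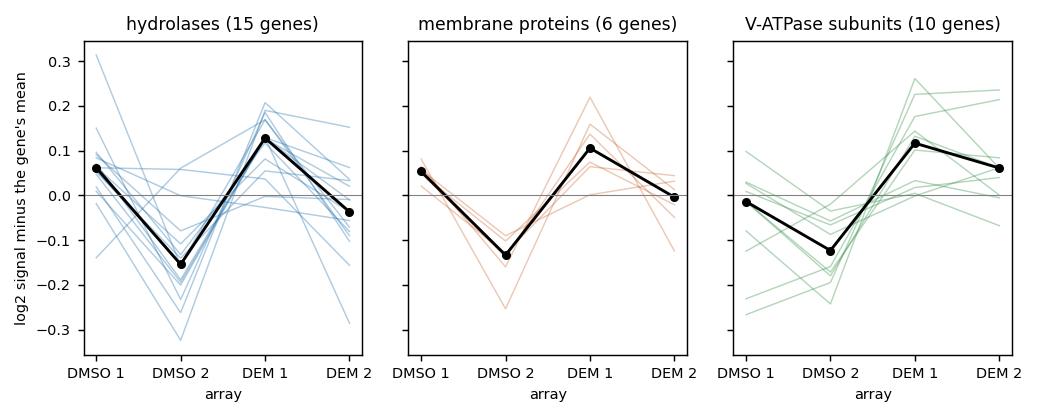
Log2 signal of each gene on the 4 arrays minus that gene's own mean, for hydrolases, membrane proteins and V-ATPase subunits. Thin lines are genes and black points are class medians: DMSO replicate 2 is the lowest array in each class, at −0.15, −0.13 and −0.12, and DEM replicate 1 the highest, at 0.13, 0.11 and 0.12.

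TFE3 and TFEB are close relatives that bind the CLEAR element, and their transcripts had different values here. All levels that follow are processed signals on a linear scale, with each array multiplied so that its 75th percentile equals the geometric mean of the 4, and they compare arrays for 1 gene, not genes with each other. The signal of Tfe3 was 451 and 418 on the DMSO arrays and 616 and 654 on the DEM arrays. The groups did not overlap, and the DEM level was 1.46 times the DMSO level (log2 change 0.55 ± 0.095, mean and SE from 2 arrays a group, limma adjusted p = 0.0865). Tfe3 had 3 probes, all tested, with log2 changes of 0.55, 0.45 and 0.22, the last from the probe with the lowest signal, which was designed on a second transcript. Across the alternatives the log2 change of Tfe3 stayed between 0.40 and 0.69 (limma adjusted p from 0.0326 to 0.626). The signal of Tfeb was 81.8 and 72.5 in DMSO and 77.9 and 64.9 in DEM. These values overlapped, with a log2 change of −0.11 ± 0.13 (95% interval −0.48 to 0.25, limma adjusted p = 0.712) that turned to 0.031 with arrays scaled on their median and to 0.017 without DEM replicate 2. No test of the difference between Tfe3 and Tfeb was made.

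The proton pump held the other nominal differences, both in the V1 sector and both higher in DEM. These were 2 of the 10 pump subunits. Over all genes, 19.2% had an unadjusted p under 0.05 in either direction, and 9.02% had it with a higher value in DEM. The count for the pump is thus near that of all genes in either direction. Atp6v1a, the catalytic subunit that binds ATP, had a signal of 949 and 998 in DMSO and of 1336 and 1345 in DEM. DEM was 1.38-fold higher (log2 change 0.46 ± 0.086, n = 2, limma adjusted p = 0.0964), and the second probe gave 0.36. Atp6v1h, a regulatory subunit that joins V1 to V0, had a signal of 2919 and 3068 in DMSO and of 3872 and 3975 in DEM. This was 1.31-fold higher (log2 change 0.39 ± 0.087, limma adjusted p = 0.128), and the second probe gave 0.38. In both genes the replicates of a group lay close together and the groups were apart. The log2 change stayed between 0.40 and 0.61 for Atp6v1a and between 0.33 and 0.54 for Atp6v1h over the alternatives (limma adjusted p from 0.0272 to 0.864 and from 0.0422 to 1.00).

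The other V1 subunits of the set had smaller values. Atp6v1b2, the partner of the catalytic subunit, had a signal of 552 and 493 in DMSO and of 699 and 608 in DEM (log2 change 0.32 ± 0.12, limma adjusted p = 0.260). The log2 change was 0.14 for Atp6v1c1, a subunit of the stator that holds the pump together, 0.057 for Atp6v1d of the rotor and 0.061 for Atp6v1e1, also of the stator. The signs of Atp6v1d and Atp6v1e1 turned under spike-in scaling. The 6 V1 subunits of the set had a median log2 change of 0.23. In 5 of 6 the groups did not overlap, all 5 higher in DEM, where 24.9% of all genes were so. The gap was narrow for Atp6v1d (highest DMSO signal 14146, lowest DEM signal 14230) and for Atp6v1c1 (5186 and 5260). Among tested V1 subunits outside the set, the log2 change was 0.074 for Atp6v1f, 0.12 for Atp6v1g1 and −0.35 for Atp6v1g2.

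The V0 sector had a median of 0.11 over the 4 genes of the set. Atp6v0d1, which couples the rotor to the membrane ring, had a signal of 6097 and 5434 in DMSO and of 6747 and 6424 in DEM (log2 change 0.19 ± 0.10, limma adjusted p = 0.395). Atp6v0e, a small membrane subunit, had a signal of 36262 and 33059 in DMSO and of 33977 and 32321 in DEM, which overlapped (log2 change −0.063 ± 0.097, limma adjusted p = 0.784). The ring subunits Atp6v0b and Atp6v0c had log2 changes of 0.19 and 0.028. Over the 10 pump subunits of the set the median was 0.16, 9 were above 0 and 0 were called. The count above 0 was 10 under median scaling and 6 under spike-in scaling, where the median of all genes was 0.14 and −0.069. The median of the 10 subunits ran from 0.10 to 0.31 over the alternatives. Whether V1 and V0 differ was not tested.

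Atp6v1a was the 1 gene among those with an unadjusted p under 0.05 whose promoter entry held a CLEAR element or an antioxidant response element. It held 1 of each. Atp6v1h, also with such a p, was not matched to an entry and so was not searched. The 250 bases before the start of Atp6v1a, at chr16:44139260-44139509 of GRCm38.p6 on the minus strand, are shown with both elements in capitals. The CLEAR element begins 132 bases and the antioxidant response element 45 bases before the start.
Atp6v1a promoter: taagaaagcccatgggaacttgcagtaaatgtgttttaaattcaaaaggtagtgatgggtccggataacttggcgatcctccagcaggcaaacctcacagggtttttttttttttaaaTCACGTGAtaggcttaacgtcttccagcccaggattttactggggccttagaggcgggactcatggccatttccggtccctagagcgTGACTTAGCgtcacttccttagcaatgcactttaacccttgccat
Among the other genes with a CLEAR element, the log2 change was 0.34 for Ctsd, 0.19 for Atp6v0d1, 0.17 for Mcoln1, 0.088 for Gla, 0.083 for Ctsa and −0.063 for Atp6v0e. The median over the 7 genes with the element was 0.17, against 0.061 over the 21 tested genes whose entry did not hold it, with ranges that overlapped. Genes not matched to an entry, from Ctsh at −0.16 to Atp6v1h at 0.39, were in neither set. For the E-box the medians were 0.088 over the 13 genes with it and 0.088 over the 15 without, and for the antioxidant response element 0.11 over 8 and 0.072 over 20. The entries of Tfe3 held none of the 3 motifs, which says only that these letters are absent from those windows.

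**Figure D4:**
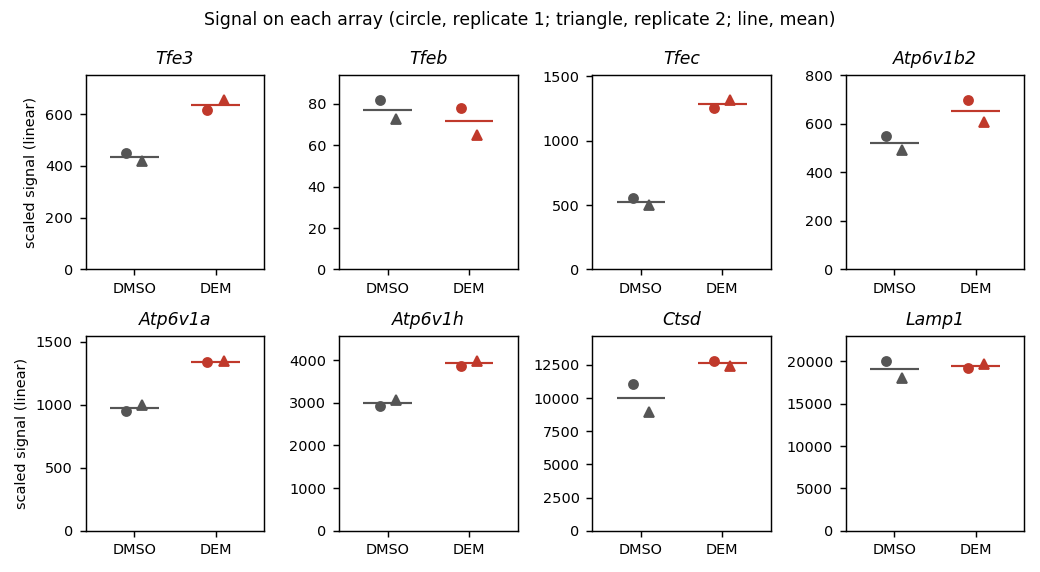
Scaled signal (linear, vertical axes from 0) on each DMSO array (grey) and DEM array (red) for 8 genes, with circles for replicate 1, triangles for replicate 2 and a line at the mean. The groups are apart for Tfe3, Tfec, Atp6v1b2, Atp6v1a, Atp6v1h and Ctsd, and overlap for Tfeb and Lamp1.

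Of the 9 proteases 7 were tested and 0 were called, with a median log2 change of 0.083. Ctsd, the aspartic protease cathepsin D, had a signal of 11058 and 8947 in DMSO and of 12778 and 12447 in DEM. The groups did not overlap, though the DMSO arrays lay far apart (log2 change 0.34 ± 0.13, limma adjusted p = 0.273), and the second probe gave 0.30. The change was 0.48 after normexp background correction (limma adjusted p = 0.0489, and from 0.0489 to 1.00 over the alternatives). Ctsh, an aminopeptidase, had a signal of 75911 and 54755 in DMSO and of 66792 and 50087 in DEM. Its groups overlapped, with the lowest value of the tested members (log2 change −0.16 ± 0.23, limma adjusted p = 0.771), which turned to 0.079 without DMSO replicate 1 and to 0.051 without DEM replicate 2.

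The cysteine proteases Ctsb, Ctsl and Ctsz had log2 changes of 0.12, 0.036 and −0.012. The second probe of Ctsb, of much lower signal, gave 0.29. Tpp1, which removes tripeptides, had 0.098, and Ctsa, a carboxypeptidase that also protects neuraminidase and beta-galactosidase, had 0.083. Ctsc was not well above background on any array, and Ctsf was so on 1 DMSO array, with signals of 6.93 and 15.0 in DMSO and of 4.75 and 6.88 in DEM, so neither was tested.

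The 7 glycosidases and the ceramidase Asah1, 8 genes in all, were tested and 0 were called, with a median log2 change of 0.083. Gaa, the acid alpha-glucosidase that clears glycogen, had a signal of 7382 and 6075 in DMSO and of 8412 and 7468 in DEM (log2 change 0.24 ± 0.14, limma adjusted p = 0.427). The DEM values began just above the higher DMSO value. Naglu, which trims heparan sulfate, had a signal of 963 and 961 in DMSO and of 947 and 828 in DEM (log2 change −0.12 ± 0.10, limma adjusted p = 0.606). It turned to 0.025 when arrays were scaled on their median. The log2 change was 0.19 for Neu1, a sialidase, 0.15 for Hexa, which acts on gangliosides, and 0.088 for Gla, the alpha-galactosidase. It was 0.079 for Asah1, the acid ceramidase, 0.045 for Glb1, the beta-galactosidase, and −0.083 for Gusb, the beta-glucuronidase.

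As a class, the 15 hydrolases tested had a median log2 change of 0.083, with 11 above 0 and 4 below. Without DMSO replicate 2 the counts were 5 above and 10 below, with a median of −0.012, and without DEM replicate 1 they were 6 and 9, with a median of −0.015. The direction of this class therefore rested on single arrays.

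Of the 6 membrane proteins 0 were called and 0 had an unadjusted p under 0.05. Mcoln1, a calcium channel of the lysosome, had the highest value, with a signal of 5200.2 and 4122 in DMSO and of 5489 and 4959 in DEM, which overlapped (log2 change 0.17 ± 0.15, limma adjusted p = 0.600). It was 0.0046 without DMSO replicate 2, then below the 0.033 of Lamp2, and 0.34 without DMSO replicate 1. Lamp1, an abundant glycoprotein that lines the membrane, had a signal of 20024 and 18079 in DMSO and of 19263 and 19674 in DEM (log2 change 0.033 ± 0.097, 95% interval −0.23 to 0.29, limma adjusted p = 0.895). The log2 change was 0.11 for Lamp2, which also serves in autophagy, and 0.088 for Scarb2, the receptor that carries glucocerebrosidase. It was 0.095 for Npc1, which exports cholesterol, and 0.053 for Cd63, a tetraspanin. The 6 genes had a median of 0.092 and all 6 were above 0, but 4 of 6 were above 0 under spike-in scaling, normexp or without DEM replicate 1, and 2 of 6 without DMSO replicate 2.

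Of the soluble proteins that are not enzymes, Psap, the precursor of the saposins that activate sphingolipid breakdown, had a signal of 10659 and 9804 in DMSO and of 11132 and 11242 in DEM (log2 change 0.13 ± 0.092, limma adjusted p = 0.522). The groups did not overlap. Npc2, which hands cholesterol to NPC1, had a log2 change of 0.097. Of the 15 alternatives 9 moved the log2 change of at least 1 of the genes, while 6 moved none. Among those that moved none, the deposited value table held the same intensities and so could alter nothing. The others altered only the test or which genes or probes entered it. In 14 of the 35 genes the direction stayed the same under those 9, namely Tfe3, 6 pump subunits (Atp6v1a, Atp6v1h, Atp6v1b2, Atp6v1c1, Atp6v0b and Atp6v0d1), Ctsd, Gaa, Neu1, Hexa, Psap, Lamp2 and Mcoln1. Where several probes of a gene were tested, their signs were alike except for Ctsz and Glb1, both close to 0.

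The wider lysosomal pathway held 1 called gene, Tfec. Of 106 further genes listed, 90 were tested, and 1 rose, 0 fell and 89 were not called. A count of 1 in 90 is near the 1.22% called over all genes. Tfec, a relative of TFEB and TFE3 in the MITF family, had a signal of 556 and 498 in DMSO and of 1249 and 1315 in DEM. It rose 2.44-fold (log2 change 1.28 ± 0.10, limma adjusted p = 0.0332), and its second probe gave 1.07 with an adjusted p of 0.0405 in limma with every probe on its own. The call was lost under 6 of the 15 alternatives: with the replicate block (limma adjusted p = 0.0521), with no filter on dim probes (0.202), and without DMSO replicate 1, DMSO replicate 2, DEM replicate 1 or DEM replicate 2 (limma adjusted p = 0.183, 0.217, 0.0516 and 0.0643), while the change itself stayed between 1.06 and 1.43 over all alternatives. Mitf, the founding member, was not tested because no probe of it cleared background on 2 or more arrays.

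Tfec stood in a list of 19 MITF relatives and regulators of the kinase mTORC1 at the lysosome surface, of which 16 were tested, with a median log2 change of 0.15. Besides Tfec, 4 of these had an unadjusted p under 0.05, all higher in DEM, where 9.02% of all genes were so. They were Flcn (0.29), the folliculin that controls TFE3 phosphorylation, its partners Fnip1 (0.36) and Fnip2 (0.33), and the GTPase Rragc (0.28). They were named after their values were seen, and none was called (limma adjusted p from 0.190 to 0.216). Mtor, the kinase itself, had the lowest value of the list (−0.32 ± 0.15, limma adjusted p = 0.339).

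The other lists had 0 calls by limma. Of 34 further hydrolases and cofactors tested, p before adjustment was under 0.05 for 2 that were higher and 1 that was lower (8.82% in either direction, against 19.2% of all genes). Manba, the beta-mannosidase, had a log2 change of −0.26 ± 0.093. Of 23 further membrane proteins, 3 were higher and 1 lower at that level (17.4%), with the potassium and proton channel Tmem175 at 0.52 ± 0.098 and the calcium channel Tpcn2 at −0.42 ± 0.084 (limma adjusted p = 0.0977 and 0.111).

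Of 8 further pump subunits tested 0 had an unadjusted p under 0.05, with the V0 subunit Atp6v0a1 at 0.22 ± 0.17 and the V1 subunit Atp6v1g2 at −0.35 ± 0.13. Of 9 genes of mannose 6-phosphate sorting, which sends new hydrolases to the lysosome, 0 had an unadjusted p under 0.05, with the adaptor Gga2 at 0.17 ± 0.090 and the transferase subunit Gnptg at −0.13 ± 0.13. The medians of these 4 lists lay between 0.0063 and 0.073.

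**Figure D5:**
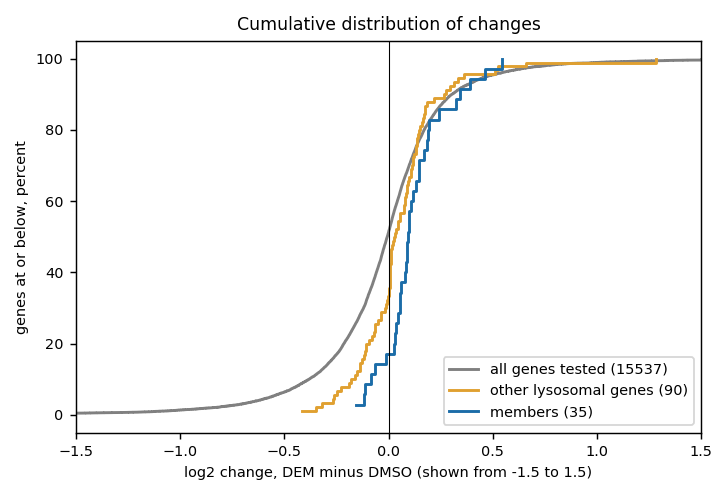
Cumulative share of genes (vertical axis, percent) by log2 change (horizontal axis, shown from −1.5 to 1.5) for all 15537 genes tested (grey), the 90 other lysosomal genes (yellow) and the 35 genes described here (blue). The blue line crosses 50% at 0.095 and the grey line at −0.0061, and the blue line spans only −0.16 to 0.55.

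The arrays held 50.4% to 52.6% of their probes well above background, with 0 saturated spots. Of 18 hepatocyte and hepatoma markers 7 were well above background on all 4 arrays, including Alb, Afp, Foxa2, Krt8 and Krt18, while Apoa1, Ttr, Ahsg, Fga, Fgb, Fgg and Hnf4a were not above it on any. Of 10 markers of macrophages, which are rich in lysosomes, 9 had a probe. The 4 markers Csf1r, Cd14, Mpeg1 and Lyz1 were above background on all 4 arrays, while Adgre1 and Itgam were not above it on any. The summed signal of the list was 3401 and 3036 in DMSO and 3581 and 2768 in DEM. Within that sum, Csf1r had a log2 change of 0.42, Mpeg1 of 0.40 and Cd14 of −0.45. Each had groups apart, as did 50.6% of all genes, and none was called (limma adjusted p = 0.362, 0.375 and 0.176). Of 9 fibroblast markers 6 were above background on all arrays, with summed signals of 73899 and 78508 in DMSO and of 63233 and 71802 in DEM. Of 6 endothelial markers 2 and of 5 cholangiocyte markers 3 were. All 3 cholangiocyte markers tested had lower signal in DEM with groups apart, where 25.6% of all genes were so. They were Sox9 at a log2 change of −0.69, Krt7 at −0.21 and Krt19 at −0.19 (limma adjusted p = 0.0782, 0.427 and 0.443). Of 8 hepatoma markers tested 5 were higher in DEM and 3 lower. Foxa2 had 0.45, Afp 0.29 and Trf −0.18 (limma adjusted p = 0.0936, 0.209 and 0.789). Of 6 fibroblast markers tested 5 were lower in DEM and 1 higher. Dcn had −0.26 and Pdgfrb 0.27 (limma adjusted p = 0.226 and 0.289). Apob, above background on 1 of the DMSO arrays and both DEM arrays, had signals of 14.3 and 3.57 in DMSO and of 51.0 and 119 in DEM (limma adjusted p = 0.138). None of the markers tested was called. Each change given here was larger in size than the median size of 0.11 among the 35 lysosomal genes. The part of these genes in the lysosomal values was not tested.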

How the data were processed

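RNA was amplified from 500 ng per sample, per the labels' protocols, and read in 1 colour with Agilent Feature Extraction 10.7.3.1, per the file headers. The values are the processed spot intensity on a linear scale, background-subtracted by that software before the authors deposited it. The authors' deposited value table held the same intensity in all 45018 spots of each array, with medians from 13.8 to 16.2. An array annotation on mm9 was stated, and coordinates in the text are those of the RefSeq promoter table on GRCm38.p6.

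Log2 intensity minus each array's 75th percentile over 43379 non-control spots was used. Spots with outlier flags were dropped, probes well above background on at least 2 of 4 arrays were kept, and the probe with the highest mean stood for its gene. Symbols came from RefSeq by accession, for 26690 of 41174 probes. DEM and DMSO were compared by limma 3.58.1 in R 4.3.3 (lmFit, eBayes, Benjamini-Hochberg, threshold 0.05), an approach tested on simulated data. The simulated arrays had independent noise with the fitted spread, and planted changes larger than any of the lysosomal genes described here. Smaller changes and shifts shared between genes were therefore not covered. The genes, lists and alternatives were chosen with earlier results of these data known. Every gene of the set is named. Values on each array are given for Tfeb and Tfe3, for genes with an unadjusted p under 0.05 and for the largest change in each direction in a class. Atp6v1b2 and Lamp1 were added after their values were seen. Promoters were to be printed for genes with an unadjusted p under 0.05 that held a CLEAR or antioxidant response element, and the short windows around CLEAR elements were added on their letters alone. Of the other lysosomal genes, those called and the extremes of each list are named. One result under this rule is not reported here. The number of arrays limits the precision, as does background in dim probes, and an array gives no read depth. Normexp used the median spot signal.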

Additional observations from a re-analysis of the deposited data

How the results depend on the processing

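The number of arrays, 2 per group, limits every statement here, and dim genes such as Tfeb carry the most background. Over all genes 190 were called. The count was 800 after normexp background correction, 93 under quantile normalization, 567 under median scaling, 557 under spike-in scaling, 426 with probes above background on all 4 arrays, 726 with an intensity trend, 0 with no filter on dim probes (3165 at an unadjusted p under 0.05, limma), and 0 to 121 when 1 array was left out, with 0 without DMSO replicate 1 or DMSO replicate 2 (2113 and 2015 at an unadjusted p under 0.05, limma). Each such fit takes its spread from the remaining pair of arrays and assumes that the lone array varies like them, so a lost call there also reflects the smaller design. Of the 35 lysosomal genes, 0 were called higher in limma, but 4 after normexp and 3 with the trend, and 0 were called lower under any alternative. Of the other lysosomal genes 1 was called higher. This was 2 under normexp, median scaling, the filter on all 4 arrays and the trend, and 0 with no filter, with the replicate block and without any 1 array, and 1 was called lower under normexp. The median was 0.23 for hydrolases and 0.24 for membrane proteins under median scaling. For pump subunits it was 0.31 under median scaling, 0.10 under normexp and 0.10 under spike-in scaling. The median of all genes under these was 0.14, −0.028 and −0.069.

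Same-numbered arrays deviated from their group means with a correlation of 0.138 over genes, and the labels do not say what the number marks. With the replicate block 143 genes were called, of the 35 lysosomal genes 0, and Tfec had an adjusted p of 0.0521 (limma).

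Signs turned in small changes. Under normexp the log2 change was −0.043 for Ctsl, 0.15 for Ctsz, −0.029 for Gla, −0.0043 for Cd63, −0.052 for Npc1 and −0.084 for Atp6v0c. Under quantile normalization it was 0.012 for Ctsz and −0.0061 for Atp6v0c. Under median scaling it was 0.13 for Ctsz, 0.062 for Gusb, 0.025 for Naglu, 0.082 for Atp6v0e and 0.031 for Tfeb. Under spike-in scaling it was −0.026 for Ctsl, −0.018 for Glb1, −0.029 for Lamp1, −0.0090 for Cd63, −0.035 for Atp6v0c, −0.0052 for Atp6v1d and −0.0019 for Atp6v1e1. When 1 array was left out, the change ran from −0.11 to 0.27 for Ctsa, −0.012 to 0.25 for Ctsb, −0.39 to 0.079 for Ctsh, −0.078 to 0.15 for Ctsl, −0.097 to 0.074 for Ctsz, −0.022 to 0.22 for Tpp1, −0.0088 to 0.18 for Gla, −0.041 to 0.13 for Glb1, −0.051 to 0.21 for Asah1, −0.019 to 0.21 for Npc2, −0.041 to 0.11 for Lamp1, −0.0058 to 0.18 for Scarb2, −0.022 to 0.13 for Cd63, −0.077 to 0.27 for Npc1, −0.016 to 0.071 for Atp6v0c, −0.13 to 0.0035 for Atp6v0e and −0.25 to 0.017 for Tfeb. The cause of these differences was not tested.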

Other observations

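Across the array, 8815 of the genes tested had a promoter entry, of which 67 were called higher in DEM (0.760%) and 39 lower (0.442%). Of 209 genes with a CLEAR element, 0 were called higher and 1 lower by limma, and their median log2 change was 0.034 against 0.0077 over the 8815. The 1 called lower was Tnfaip3, a brake on inflammatory signalling (log2 change −1.43 ± 0.14, n = 2 arrays per group, limma adjusted p = 0.0436). Of 1503 genes with an antioxidant response element, 20 were called higher (1.33%) and 7 lower (0.466%), with a median of 0.027. Of 1074 genes with an E-box, 5 were called higher and 5 lower, with a median of 0.021. The sets share genes, since each CLEAR element contains an E-box, and these counts were not tested against each other.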
